A study of Homo sapiens with 8 samples.

Results

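The genes described here are the amino acid transporters of 7 solute carrier families, SLC1, SLC3, SLC6, SLC7, SLC36, SLC38 and SLC43. They were taken by name, as every row whose gene symbol is one of these family names followed by A and a member number, which gave 57 of the 19158 genes listed. The SLC1 family held 7 members, SLC3 held 2, SLC6 held 19, SLC7 held 11, SLC36 held 4, SLC38 held 11 and SLC43 held 3. RNA came from A549, an established epithelial line from a human lung adenocarcinoma, labelled wild type. In one group 4 wells were treated with 1 µM dexamethasone, a synthetic glucocorticoid, for 48 h, and in the other 4 wells were left untreated. Both groups carried the replicate numbers 1, 3, 4 and 5 and batch 1 as labelled, and all wells grew in DMEM with serum. The comparison asks how the transcripts of these carriers differed after exposure to the glucocorticoid. Because all wells were of the same line, each p-value measures the spread between replicates of that line. The labels do not say what a replicate number stands for. The fit took no account of it, so differences between replicate numbers are part of that spread. In bulk RNA, fewer cells expressing a gene and less RNA of it per cell cannot be told apart.

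Levels are FPKM (fragments scaled to the length of the transcript and to the fragments of the library), divided by a factor per library that removes differences in composition, so they can be set side by side between genes. Low values stepped as they would at about 25000000 to 28410000 fragments per library. FKBP5, a glucocorticoid-induced co-chaperone that checks the labels, lay between 4.00 and 6.76 FPKM in untreated and between 95.4 and 163 in dexamethasone libraries. Of 6 epithelial markers 5 reached 1 FPKM, EPCAM being the exception, while NKX2-1, the regulator of lung lineage, stayed at 0.0654 or lower. The 5 lung-lineage markers summed to 0.547 to 0.873 FPKM in untreated and 3 to 5.03 in treated libraries, mostly through the surfactant protein gene SFTPD, which went from 0.135 ± 0.0819 to 3.06 ± 0.701 (SD, n = 4 each). PTPRC, which marks leucocytes, was listed at 0 throughout, but the other leucocyte markers CD68 and CD14 had untreated means of 4.13 and 2.51 FPKM. The 5 fibroblast markers summed to 1.69 to 2.67 FPKM in untreated and 0.58 to 0.824 in treated libraries, mostly COL1A1 in the untreated ones. Untreated replicate 5 stood apart: its factor was 0.8205 where the others were 0.9152 to 1.085, and 10555 genes reached 1 FPKM in it against 11008 to 11378 elsewhere.

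Amino acids cross membranes through carriers, which couple entry to sodium or protons, exchange an internal amino acid for an external one, or let it move down its gradient. Many SLC7 proteins are light chains that need an SLC3 heavy chain, bound through a disulphide bridge, to reach the plasma membrane. Exchangers such as SLC7A5 do not raise the total of amino acids in a cell by themselves. They trade glutamine and other amino acids, brought in by SLC1A5, SLC38A1 and SLC38A2, for leucine and other essential ones. In lung adenocarcinoma cells SLC7A5 and the cystine carrier SLC7A11 are known for high expression. A glucocorticoid acts through its receptor, a transcription factor that binds DNA at palindromes of a hexamer.

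Among the 57 transporters, 28 passed the filter on low values (0.5 FPKM in at least 4 libraries) and were tested. Dexamethasone raised 8 and lowered 8, by limma on log2(scaled FPKM + 1) with Benjamini-Hochberg adjustment over all 12161 genes tested and a threshold of 0.05. Across all tested genes 26.8% were called, 12.6% higher and 14.2% lower. Those higher were SLC7A7, SLC7A8, SLC6A15, SLC38A2, SLC43A2, SLC38A1, SLC1A1 and SLC38A6. Those lower were SLC7A5, SLC1A5, SLC3A1, SLC6A9, SLC1A4, SLC6A17, SLC3A2 and SLC7A1. In these 16 the values of the groups did not overlap, which was also true of 31.4% of all tested genes. SLC7A8 passed the filter through the dexamethasone libraries alone, so it had to differ, and its place in these counts is no test result. The median log2 change of the 28 was -0.16, beside 0.01 for all tested genes. Changes on this scale understate those of genes near or below 1 FPKM. With a pseudocount of 0.1 in place of 1 the change was 1.28 in place of 0.82 for SLC1A1, 1.97 in place of 1.17 for SLC6A15, -1.38 in place of -0.74 for SLC6A17 and -1.91 in place of -0.83 for SLC3A1. Whether the counting used strand is not stated, so reads of a transporter and of a gene overlapping it on the opposite strand cannot be told apart. Among others, this holds for SLC6A6 with GRIP2, SLC7A6 with SLC7A6OS and SLC38A9 with DDX4, and for antisense RNAs of SLC7A11, SLC38A2 and SLC6A17.

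**Figure D1:**
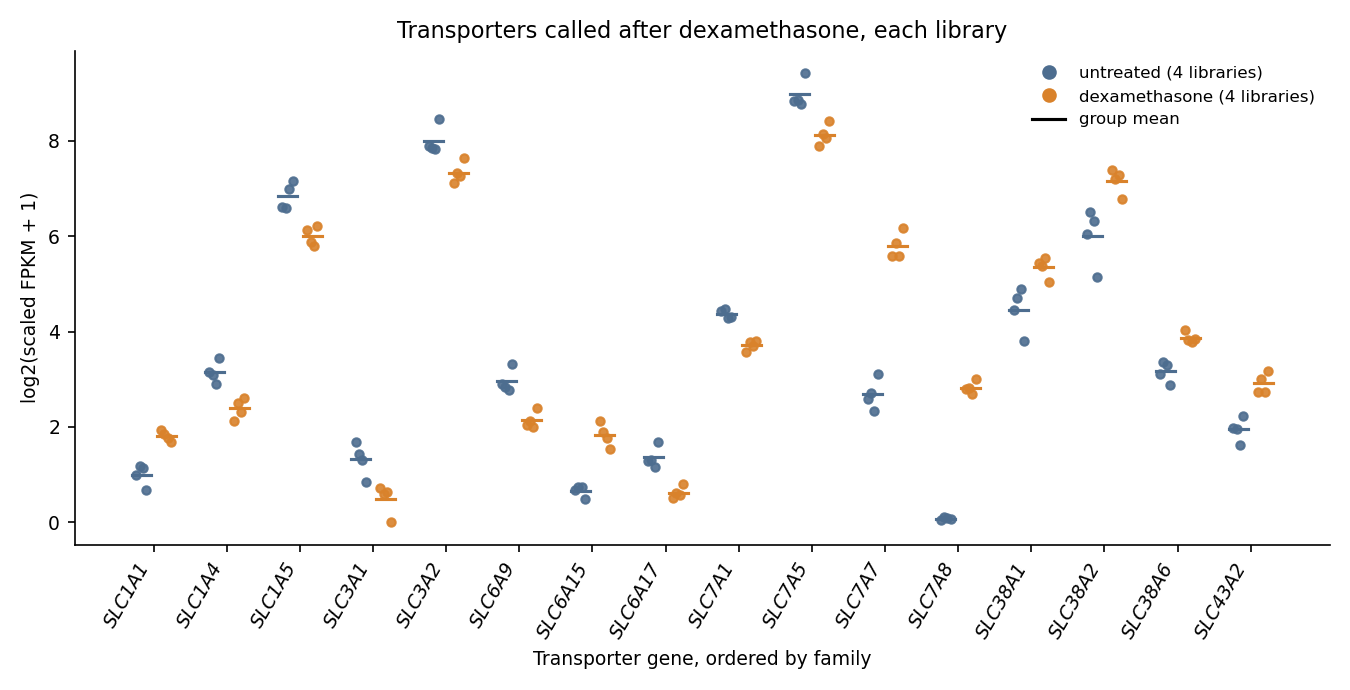
Level as log2(scaled FPKM + 1) of the 16 called transporters, each point 1 of 4 untreated or 4 dexamethasone libraries and each short line a group mean. No pair of groups overlaps, SLC7A7 and SLC7A8 move farthest, and SLC3A1 is at 0 in dexamethasone replicate 5.

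The plot of called transporters by library shows that the falls were of like size, with untreated means 1.61 to 3.62 times the dexamethasone means, while the rises ran from 1.70 times to 114 times. By family the called members went as follows, with only 2 to 7 tested members in each and no test between families. In SLC3 both members were lower, and in SLC38 the 3 called of 6 tested were all higher. SLC1 had 1 higher and 2 lower of 3 tested, SLC6 had 1 higher and 2 lower of 6, and SLC7 had 2 higher and 2 lower of 7. SLC43 had 1 higher of 2 tested, and neither of the 2 tested SLC36 members was called by limma. The median change was -0.76 in SLC1, -0.75 in SLC3, -0.48 in SLC6, -0.07 in SLC7, -0.03 in SLC36, 0.62 in SLC38 and 0.33 in SLC43.

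**Figure D2:**
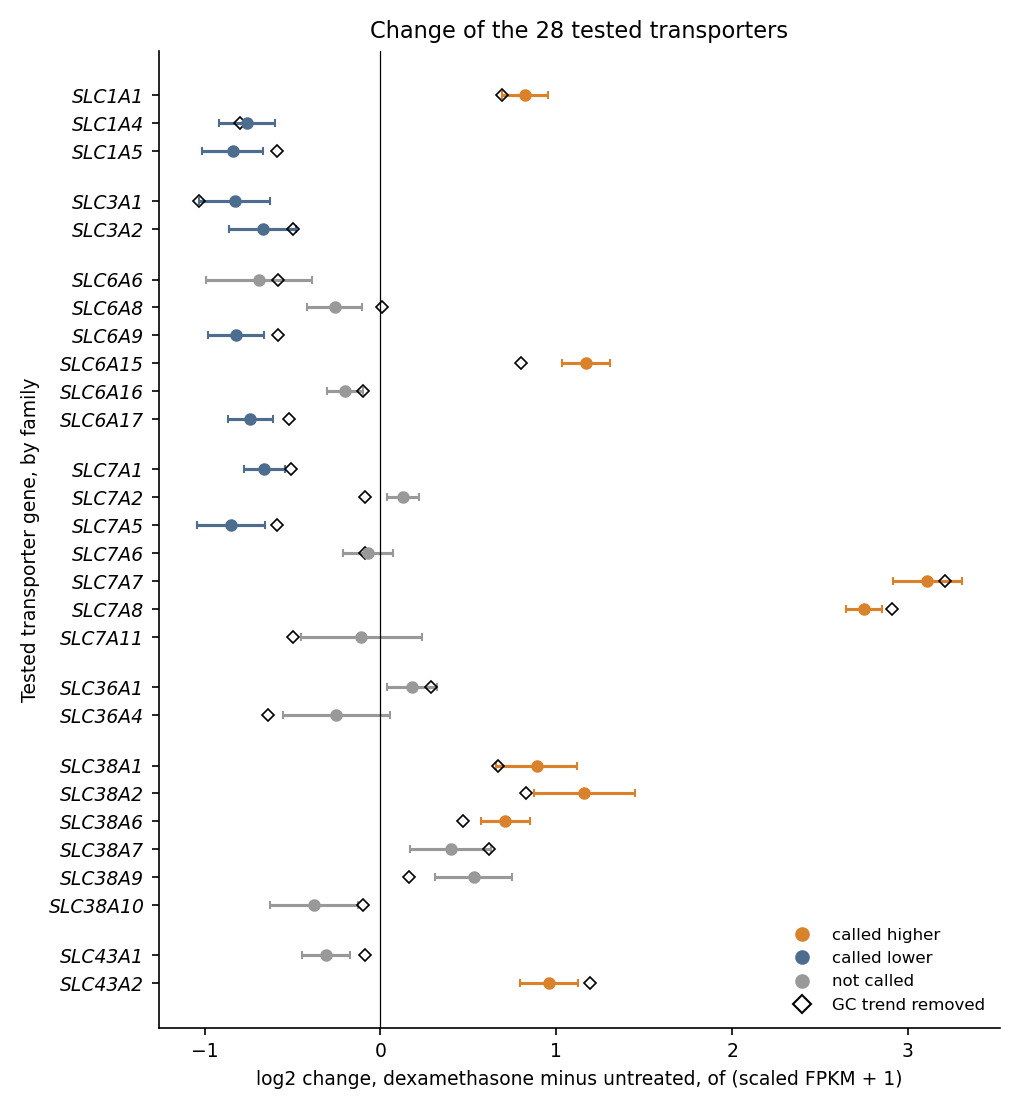
Change in log2(scaled FPKM + 1), dexamethasone minus untreated, of the 28 tested transporters by family, each with its SE as a bar and, as an open diamond, its change with the trend on GC content removed. SLC7A7 and SLC7A8 lie far above the rest, at 3.11 and 2.75, both SLC3 members lie below 0, and the 3 called SLC38 members lie above 0.

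The largest rises were in SLC7A7 and SLC7A8, light chains on chromosome 14 that both pair with SLC3A2. SLC7A7 (ENSG00000155465, chr14:22773222-22829820, minus strand) exchanges cationic for neutral amino acids and sodium, and its loss causes lysinuric protein intolerance. Its level in untreated replicates 1, 3, 4 and 5 was 5.01, 5.58, 4.07 and 7.65 FPKM, and in dexamethasone replicates 1, 3, 4 and 5 it was 47.0, 56.8, 47.2 and 70.8. Every treated well lay above every untreated well, and replicate 5 was the highest of both groups. The mean went from 5.58 ± 1.52 to 55.4 ± 11.2 FPKM (SD, n = 4 each), 9.94 times, and the log2 change was 3.11 (SE 0.195, limma adjusted p = 5.6e-06).

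SLC7A8 (ENSG00000092068, chr14:23125295-23183674, minus strand) exchanges small and large neutral amino acids. Its level was 0.0362, 0.0760, 0.0574 and 0.0458 FPKM in the untreated wells and 5.99, 6, 5.48 and 6.99 in the treated wells, in the order of replicates 1, 3, 4 and 5. It was close to absent in all untreated wells and near 6 FPKM in all treated ones. The means were 0.0538 ± 0.0171 and 6.11 ± 0.63 FPKM (SD, n = 4 each), 114 times apart, and the log2 change was 2.75 (SE 0.101). With a pseudocount of 0.1 in place of 1 that change was 5.34. No p is given, because the gene passed the filter through the treated wells alone. SLC7A7 is also known from monocytes and macrophages, and the leucocyte marker PTPRC was at 0 in all libraries. Of 3 leucocyte markers, CD68 and CD14 fell, and their summed level was 5.32 to 9.17 FPKM in untreated and 2.98 to 4.10 in dexamethasone wells. The 3 endothelial markers summed to at most 0.17 FPKM in any library.

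The most abundant carrier moved the other way. SLC7A5 (ENSG00000103257, chr16:87830023-87869488, minus strand) imports leucine and other large neutral amino acids in exchange for glutamine. Its values were 456, 466, 439.8 and 685 FPKM in untreated and 237, 284, 266 and 339 in dexamethasone replicates 1, 3, 4 and 5. The highest treated well lay below the lowest untreated well, and untreated replicate 5 was far above the other untreated wells. The mean was 512 ± 116 FPKM before and 282 ± 42.8 after treatment (SD, n = 4 each), a 1.82-fold lower level, with a log2 change of -0.85 (SE 0.193, limma adjusted p = 0.01). SLC7A5 still ranked highest of the 57 in both groups.

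SLC3A2 (ENSG00000168003, chr11:62856102-62888875, plus strand), the CD98 heavy chain that carries SLC7A5, SLC7A6, SLC7A7, SLC7A8, SLC7A10 and SLC7A11 to the membrane, ranked next in both groups. Its level was 236, 229, 228 and 349 FPKM in untreated and 138, 159, 152 and 198 in dexamethasone replicates 1, 3, 4 and 5. The groups did not overlap, although untreated replicate 5 accounted for most of the untreated spread. The mean of 261 ± 59.3 was 1.61 times the treated mean of 162 ± 25.6 FPKM (SD, n = 4 each), and the log2 change was -0.67 (SE 0.189, limma adjusted p = 0.0263). The call was lost when dexamethasone replicate 1, 3 or 4 was left out, with changes of -0.60, -0.67 and -0.65 and limma adjusted p of 0.084, 0.0711 and 0.0779.

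SLC3A1 (ENSG00000138079) is the other heavy chain, which pairs with SLC7A9 and SLC7A13 in kidney and gut and whose loss causes cystinuria. It was low, at 2.23, 1.70, 1.49 and 0.804 FPKM in untreated and 0.644, 0.516, 0.557 and 0 in dexamethasone replicates 1, 3, 4 and 5. Replicate 5 was the lowest of each group, and the treated wells all lay below the untreated ones. The log2 change was -0.83 (SE 0.204, limma adjusted p = 0.0144). With a filter at 1 FPKM it was no longer tested. Its partners were lower still: SLC7A9 reached at most 0.562 FPKM and was not tested, and SLC7A13 was listed at 0 in all 8 libraries. SLC3A1 overlaps PREPL on the opposite strand and a readthrough gene on its own, so its reads may not all be its own.

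Of the remaining light chains, SLC7A11, which exports glutamate to import cystine for glutathione, did not pass the test. It read 16.3, 24.5, 20.3 and 6.69 FPKM in untreated and 16.5, 13.6, 17.4 and 10.1 in dexamethasone replicates 1, 3, 4 and 5. The groups overlapped throughout, and replicate 5 was the lowest in both. Its log2 change was -0.11 (SE 0.344, limma adjusted p = 0.825), and the sign turned positive when untreated replicate 3 or 4 or dexamethasone replicate 5 was left out. With the trend on GC content removed SLC7A11 was at -0.50 and not called (limma adjusted p = 0.0525). It was called lower in the 2 settings added after seeing the data, given below. SLC7A6, the relative of SLC7A7, had means of 7.16 ± 1.06 and 6.78 ± 0.89 FPKM (SD, n = 4 each) and a change of -0.07 (limma adjusted p = 0.754). SLC7A10, a carrier of small amino acids in brain, did not exceed 0.0536 FPKM and was not tested.

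Set side by side per transcript length, the light chains of SLC3A2 shifted in make-up. SLC7A5 gave 93.9%, 92.7%, 93.2% and 97.1% of their summed FPKM in untreated replicates 1, 3, 4 and 5, and 75.4%, 77.6%, 77.6% and 78.1% in the treated ones. SLC7A7 gave 1.03%, 1.11%, 0.861% and 1.08% before and 14.9%, 15.5%, 13.8% and 16.3% after. These shares varied little between wells and did not overlap between groups. SLC7A8 went from 0.0103% ± 0.00404 to 1.69% ± 0.146, SLC7A11 from 3.36% ± 1.73 to 4.09% ± 1.36, and SLC7A6 from 1.38% ± 0.397 to 1.9% ± 0.424 (SD, n = 4 each). The ratio of SLC7A5 to SLC7A7 was 83.6 to 108 in untreated and 4.79 to 5.64 in treated wells. A ratio within a library is not altered by the scaling between libraries.

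**Figure D3:**
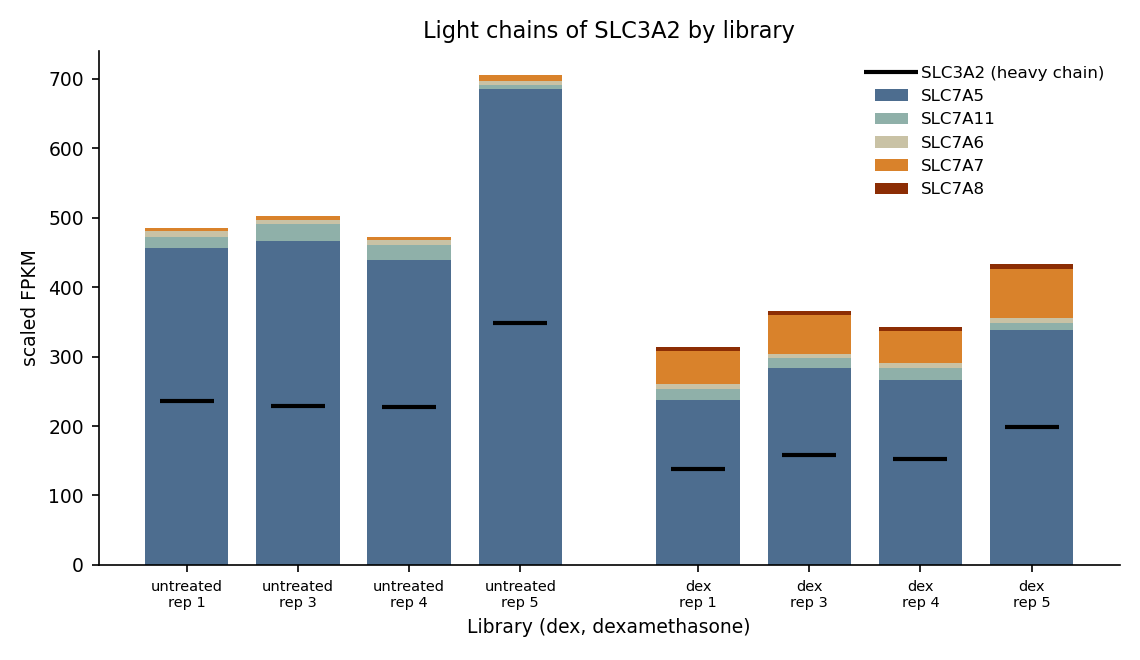
Scaled FPKM of the light chains that pair with SLC3A2, stacked for each of 8 libraries, with SLC3A2 itself as a black line; SLC7A10, at most 0.0536, is not drawn. The stack is 472 to 706 in untreated and 315 to 434 in dexamethasone libraries, and the SLC7A7 layer is visibly thicker in the latter.

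The stacked plot of light chains also shows a lower total beside the lower heavy chain, SLC7A5 being the light chain that fell. The summed light chains were 542 ± 110.0 FPKM in untreated and 364 ± 50.9 in treated wells, and the sum divided by SLC3A2 was 2.09 ± 0.077 and 2.26 ± 0.0483 (SD, n = 4 each). SLC7A5 divided by SLC3A2 was 1.93 to 2.04 in untreated and 1.71 to 1.79 in treated wells. Untreated replicate 5, the highest library for both genes, had a ratio of 1.96, within the range of its group.

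A stretch just before a transcription start is shown for these 4 genes because they carry the opposite movements of the same complex. It ends at or close to a RefSeq start, was read from RefSeq windows on GRCh38.p14 reaching 250 bases before and 50 after a start, and is written on the strand of the gene. Of the 57 transporters 43 matched a window by symbol, with 65 windows in all, among them 14 of the 16 called. Capitals mark a match to TGACNNNGC, the antioxidant response element, where one was found.
SLC7A7, chr14:22819812-22819911, minus strand: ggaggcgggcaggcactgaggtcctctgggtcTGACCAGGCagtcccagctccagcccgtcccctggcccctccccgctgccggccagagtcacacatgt
SLC7A8, chr14:23183675-23183780, minus strand: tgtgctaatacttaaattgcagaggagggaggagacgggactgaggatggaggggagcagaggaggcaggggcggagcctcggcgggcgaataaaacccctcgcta
SLC3A2, chr11:62881579-62881697, plus strand: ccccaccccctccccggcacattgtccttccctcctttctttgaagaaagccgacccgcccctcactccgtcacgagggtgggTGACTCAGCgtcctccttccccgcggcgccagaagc
SLC7A5, chr16:87869501-87869627, minus strand: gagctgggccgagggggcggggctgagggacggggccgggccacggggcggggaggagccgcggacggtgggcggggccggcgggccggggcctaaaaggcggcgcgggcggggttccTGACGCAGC

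For SLC7A7, SLC3A2 and SLC7A5 a window was picked because it held such a match, so its presence in the stretch shown was fixed by the choice. The starts shown for SLC7A7 and SLC3A2 lie well inside the listed bounds of the gene. SLC7A8 held no match, and its outermost window was used. No exon of GENCODE v44 overlaps the stretches of SLC7A7, SLC7A8 and SLC3A2, whereas the last 7 bases of the SLC7A5 stretch lie in one. On either strand TGACNNNGC occurred in 7 of the 65 windows (10.8%), in 7 genes, beside 13.3% of all 35116 windows. A match is a description of the letters and not a site of binding.

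SLC7A1 and SLC7A2 are the cationic amino acid carriers of the family, which bring in arginine and lysine without a heavy chain. SLC7A1 was 20.6, 21.1, 18.4 and 18.7 FPKM in untreated and 10.9, 12.7, 11.9 and 13.0 in dexamethasone replicates 1, 3, 4 and 5. The groups lay well apart, and replicate 5 was inside the range of the untreated wells and at the top of the treated ones. The mean fell from 19.7 ± 1.37 to 12.1 ± 0.935 FPKM (SD, n = 4 each), 1.63-fold, with a log2 change of -0.66 (SE 0.115, limma adjusted p = 0.00235). SLC7A2 was 0.436 ± 0.127 and 0.574 ± 0.112 FPKM (SD, n = 4 each) with overlapping groups and a change of 0.13 (limma adjusted p = 0.299). SLC7A3, the third cationic carrier, was above 0 in 1 library only, at 0.0156 FPKM.

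In the SLC1 family the neutral carriers and the acidic carrier went in opposite directions. SLC1A5 exchanges glutamine, alanine, serine and cysteine with sodium and was among the 4 most abundant members in both groups. It read 97.2, 96.0, 126 and 141 FPKM in untreated and 68.9, 57.5, 54.2 and 72.9 in dexamethasone replicates 1, 3, 4 and 5. Even the lowest untreated well lay above the highest treated one. The mean was 115 ± 22.3 against 63.4 ± 8.99 FPKM (SD, n = 4 each), 1.82 times lower after treatment, with a log2 change of -0.84 (SE 0.174, limma adjusted p = 0.00624).

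SLC1A4, the close relative that carries alanine, serine, cysteine and threonine, fell as well. Its values were 7.87, 7.45, 6.52 and 9.92 FPKM in untreated and 3.36, 4.66, 4.00 and 5.07 in treated replicates 1, 3, 4 and 5, with no overlap. The log2 change was -0.76 (SE 0.158, limma adjusted p = 0.00649). SLC1A1, a high-affinity carrier of glutamate, aspartate and cysteine, rose, from 0.996, 1.25, 1.20 and 0.590 FPKM to 2.81, 2.61, 2.41 and 2.23 in the same order. The mean was 2.49 times higher and the log2 change 0.82 (SE 0.131, limma adjusted p = 0.00153). SLC1A1 overlaps SPATA6L on the opposite strand. The glial and neuronal carriers SLC1A2, SLC1A3, SLC1A6 and SLC1A7 did not exceed 0.045 FPKM and were not tested.

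The 3 called members of SLC38 rose. SLC38A2, which concentrates glutamine and other small neutral amino acids with sodium, lies on chromosome 12 (chr12:46358189-46372867, minus strand) next to SLC38A1 (chr12:46183063-46270017, minus strand). SLC38A2 was 65.3, 90.1, 78.9 and 34.3 FPKM in untreated and 167, 147, 155 and 109 in dexamethasone replicates 1, 3, 4 and 5. Replicate 5 was the lowest of both groups, and yet its treated well exceeded every untreated well. The mean rose from 67.2 ± 24.1 to 145 ± 25 FPKM (SD, n = 4 each), 2.15 times, with a log2 change of 1.16 (SE 0.285, limma adjusted p = 0.0144). The change was 0.73 with the trend on GC content removed and both libraries numbered 5 left out, a setting chosen after seeing the data.

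SLC38A1, a glutamine carrier of similar substrates, was 20.8, 25.1, 28.6 and 13.0 FPKM in untreated and 42.4, 40.4, 45.7 and 31.9 in treated replicates 1, 3, 4 and 5. Replicate 5 was again the lowest in each group, and the groups did not overlap. The mean was 1.83 times higher and the log2 change was 0.89 (SE 0.23, limma adjusted p = 0.0188). This call was lost without scaling between libraries (0.89, limma adjusted p = 0.0623) and without untreated replicate 1 or dexamethasone replicate 1, 3 or 4, where the change was 0.87, 0.86, 0.88 and 0.82 and the limma adjusted p lay between 0.0509 and 0.059. SLC38A4, the third member in the same stretch of chromosome 12 (chr12:46764761-46832408), was listed at 0 in every untreated well and reached 0.0101 FPKM in treated ones.

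SLC38A6, an orphan carrier found mainly in brain, was 7.67, 9.24, 8.87 and 6.39 FPKM in untreated and 15.4, 13.1, 12.8 and 13.3 in treated replicates 1, 3, 4 and 5. The groups did not overlap, and the log2 change was 0.71 (SE 0.139, limma adjusted p = 0.0045), or 0.47 with the trend on GC content removed. It overlaps TRMT5 on the opposite strand. SLC38A10, the most abundant SLC38 member not called, read 46.4, 37.8, 36.9 and 72.5 FPKM before and 25.4, 41.8, 32.6 and 45.5 after treatment, with overlap and a change of -0.38 (limma adjusted p = 0.281). SLC38A9, the lysosomal arginine sensor upstream of mTORC1, had means of 7.45 ± 2.05 and 11.1 ± 2.33 FPKM, and SLC38A7, the lysosomal glutamine exporter, 7.30 ± 2.47 and 9.91 ± 2.61 (SD, n = 4 each). Their limma adjusted p were 0.103 and 0.22. Without both libraries numbered 5 each passed the test, at 0.51 (limma adjusted p = 0.00704) and 0.48 (limma adjusted p = 0.034). SLC38A9 also passed without dexamethasone replicate 5 alone (0.68, limma adjusted p = 0.0374), and SLC38A7 without untreated replicate 5 alone (0.58, limma adjusted p = 0.0329). With the trend on GC content removed, SLC38A9 was at 0.16 and not called, and SLC38A7 was called at 0.62 (limma adjusted p = 0.00441).

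The starts of the glutamine carriers SLC38A1 and SLC38A2, which rose, and of SLC1A4 and SLC7A1, which fell, are given to set members of opposite direction side by side. Capitals mark AGAACA, seen as its reverse complement, in SLC38A1, TGATGNAA, also as its reverse complement, in SLC1A4, and TGACNNNGC in SLC7A1. The windows of SLC38A1, SLC1A4 and SLC7A1 were picked because they held the marked match. The starts shown for SLC38A1, SLC38A2 and SLC1A4 lie inside the listed bounds of the gene, and 1 base of the SLC1A4 stretch lies in an exon of GENCODE v44. SLC38A2 held no match to any motif searched, and its outermost window was used.
SLC38A1, chr12:46267988-46268143, minus strand: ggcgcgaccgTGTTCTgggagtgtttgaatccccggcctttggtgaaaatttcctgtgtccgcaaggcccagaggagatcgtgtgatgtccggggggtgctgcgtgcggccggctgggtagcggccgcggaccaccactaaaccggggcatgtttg
SLC38A2, chr12:46372774-46372893, minus strand: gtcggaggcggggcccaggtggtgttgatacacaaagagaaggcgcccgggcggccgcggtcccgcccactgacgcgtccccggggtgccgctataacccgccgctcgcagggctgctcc
SLC1A4, chr2:64989279-64989399, plus strand: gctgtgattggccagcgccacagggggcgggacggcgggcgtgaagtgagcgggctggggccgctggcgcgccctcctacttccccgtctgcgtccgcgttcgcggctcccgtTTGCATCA
SLC7A1, chr13:29595689-29595808, minus strand: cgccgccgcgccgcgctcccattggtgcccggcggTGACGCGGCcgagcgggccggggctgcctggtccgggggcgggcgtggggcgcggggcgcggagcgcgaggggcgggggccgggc

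The full glucocorticoid response element, searched as AGAACA, 3 free bases and the reverse complement TGTTCT, was in 0 of the 65 windows and in 1 of all 35116 (0.00285%). Its hexamer AGAACA, which every full element contains, was in 6 windows of the transporters (9.23%) against 14.8% of all, and the called genes with it were SLC38A1 and SLC7A7. TGATGNAA, the core bound by C/EBP and ATF factors when amino acids are short, was in 6 windows (9.23%) against 3.62% of all. The genes were SLC1A3, SLC1A4, SLC1A5, SLC3A2, SLC7A1 and SLC38A1, of which SLC1A4, SLC1A5, SLC3A2 and SLC7A1 fell, SLC38A1 rose and SLC1A3 was not tested. In SLC1A4 the match began 7 bases before the start, and in SLC3A2 at base 38 after it. Distal sequence was not looked at.

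SLC6 is a family of sodium- and chloride-coupled carriers best known for clearing neurotransmitters, and most of its 19 members were near absent here. SLC6A15, a carrier of proline, leucine and other neutral amino acids, rose from 0.594, 0.681, 0.661 and 0.408 FPKM to 3.37, 2.74, 2.42 and 1.91 in replicates 1, 3, 4 and 5. All treated wells exceeded all untreated ones, and replicate 5 was lowest in both. The mean was 4.45 times higher, with a log2 change of 1.17 (SE 0.135, limma adjusted p = 0.000211). SLC6A9, the glycine carrier, fell from 6.43, 6.16, 5.89 and 9.06 FPKM to 3.09, 3.37, 2.98 and 4.28. Its groups lay apart with replicate 5 on top of each, and the log2 change was -0.82 (SE 0.159, limma adjusted p = 0.00434). SLC6A9 overlaps CCDC24 on the opposite strand.

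SLC6A17, a vesicular carrier of neutral amino acids in neurons, read 1.43, 1.46, 1.24 and 2.23 FPKM in untreated and 0.422, 0.527, 0.484 and 0.740 in treated replicates 1, 3, 4 and 5. It was low in all wells and lower in every treated one, 2.93-fold by the means, with a log2 change of -0.74 (SE 0.128, limma adjusted p = 0.00242). SLC6A6, the taurine carrier, was the most abundant SLC6 member, at 55.8, 67.5, 52.0 and 52.7 FPKM before and 47.9, 58.1, 22.7 and 22.9 after treatment. Treated replicates 4 and 5 were far below the rest, while treated replicate 3 was inside the untreated range. The change was -0.69 (SE 0.3, limma adjusted p = 0.119), and it passed the test at -0.93 (limma adjusted p = 0.0424) without dexamethasone replicate 3.

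SLC6A8, the creatine carrier, and SLC6A16, an orphan, were tested and not called. Their changes were -0.26 (limma adjusted p = 0.232) and -0.20 (limma adjusted p = 0.171), and SLC6A8 overlaps PNCK on the opposite strand. SLC6A14, a broad carrier of neutral and cationic amino acids often raised in epithelial tumours, was 0.0169, 0.0081, 0.00766 and 0 FPKM in untreated replicates 1, 3, 4 and 5 and listed at 0 in all treated ones. It was not tested.

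Neither tested member of SLC36, a family known for proton-coupled carriers of small amino acids, passed the test. SLC36A1 was 6.52, 5.56, 4.39 and 6.37 FPKM in untreated and 6.38, 5.90, 7.52 and 6.54 in treated replicates 1, 3, 4 and 5, with overlap and a change of 0.18 (limma adjusted p = 0.362). SLC36A4 lay between 2.39 and 6.77 FPKM in untreated and between 1.84 and 5.24 in treated wells, a change of -0.25 with a limma adjusted p of 0.577. At an unadjusted p under 0.05 both remained uncalled, their p being 0.227 and 0.443. With the trend on GC content removed, SLC36A4 was called lower, at -0.64 (limma adjusted p = 0.03).

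In SLC43, a family of sodium-independent carriers of branched-chain and aromatic amino acids, the tested members differed. SLC43A2 rose from 2.94, 2.88, 2.09 and 3.70 FPKM to 5.65, 7.06, 5.67 and 8.01 in replicates 1, 3, 4 and 5. No well of one group reached the other, the mean was 2.27 times higher, and the log2 change was 0.96 (SE 0.165, limma adjusted p = 0.00225). SLC43A1 was 1.30, 1.65, 1.27 and 2.19 FPKM in untreated and 0.764, 1.15, 1.10 and 1.33 in treated wells, with a slight overlap and a change of -0.31 (limma adjusted p = 0.125). SLC43A3, which is known to carry purine bases, peaked at 0.118 FPKM and was not tested.

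The 29 transporters that were not tested were listed at 0 in all 8 libraries in 9 cases and above 0 in at least 1 library in 20. SLC1A6, SLC6A2, SLC6A5, SLC6A7, SLC6A18, SLC7A13, SLC36A2 and SLC36A3 were among the former. They include the noradrenaline carrier SLC6A2, the neuronal glycine carrier SLC6A5 and the brain proline carrier SLC6A7. The betaine and GABA carrier SLC6A12 reached 0.353 FPKM, in untreated replicate 5, and the GABA carriers SLC6A11 and SLC6A13 reached 0.0754 and 0.0748. The dopamine and serotonin carriers SLC6A3 and SLC6A4 and the intestinal and renal carriers SLC6A19 and SLC6A20 stayed at 0.0242, 0.0151, 0.0213 and 0.0122 or lower. In SLC38, SLC38A8 reached 0.123, SLC38A5 0.0657, SLC38A11 0.0308 and SLC38A3 0.0123 FPKM. Whether such members differ between groups was not detectable at these levels.

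The direction of a change went with the base composition of the transcript. The median GC content of the longest transcript was 42.6% in the 8 that rose (36.1% to 58.5%) and 56% in the 8 that fell (41.8% to 61.3%), beside 48.2% in all tested genes. Across the 28 tested transporters the Spearman rho between change and GC content was -0.44, and across 12130 tested genes it was also -0.44. These are correlations across genes, which share the same 8 libraries, and describe these libraries. SLC43A2, SLC7A7 and SLC7A8 rose at a GC content of 58.5%, 50.9% and 52.9%, above the median of all genes. With the trend of each library on GC content removed, 18 transporters were called, and these included all 16. The part of GC content in single changes was not tested.

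**Figure D4:**
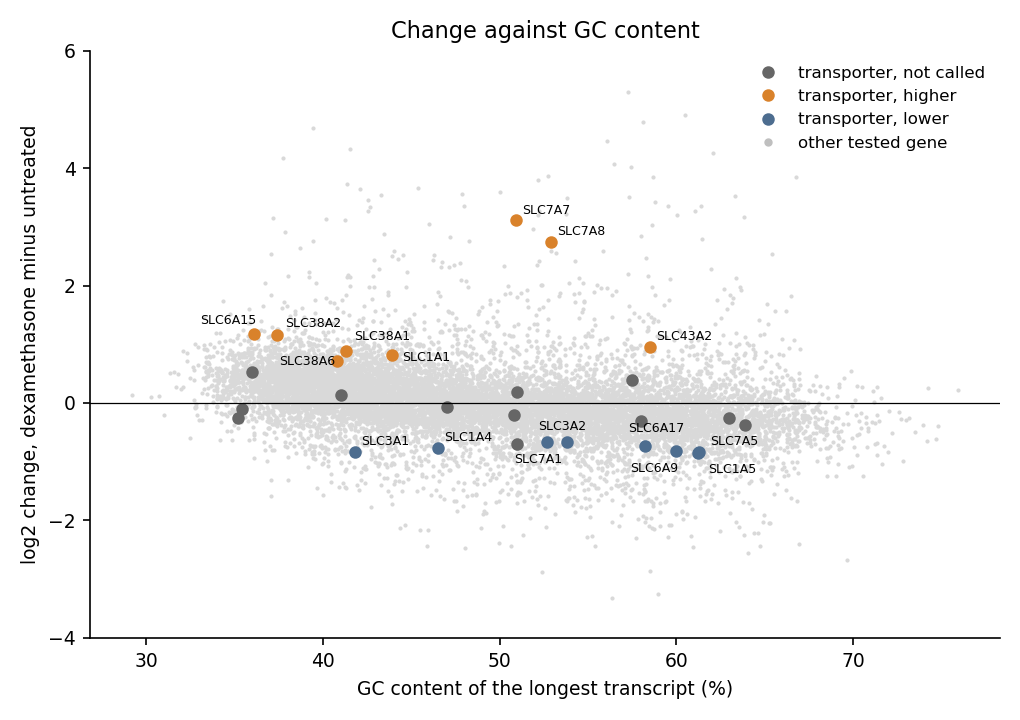
Log2 change, dexamethasone minus untreated, against GC content of the longest transcript in %, for all tested genes with a value (small grey points) and the 28 tested transporters (large points). The cloud slopes down, with rho -0.44, and SLC7A7, SLC7A8 and SLC43A2 are the called rises with a GC content above the median of all tested genes.

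The plot of change against GC content sets most SLC38 members on the AT-rich side and SLC7A5, SLC1A5 and SLC6A9 on the GC-rich side. Untreated replicate 5 was at an end of its group for 14 of the 16 called transporters, SLC7A1 and SLC7A8 being the exceptions. It was the highest untreated well for SLC7A5, SLC3A2, SLC1A4, SLC1A5, SLC6A9 and SLC6A17, which fell, and for SLC7A7 and SLC43A2, which rose. It was the lowest for SLC38A1, SLC38A2, SLC38A6, SLC6A15 and SLC1A1, which rose, and for SLC3A1, which fell. Without both libraries numbered 5, limma called 19 transporters, including all 16. Over all genes that setting called 2768 higher and 2765 lower, against 1532 and 1727 in the main fit.

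The genes around amino acid transport were looked at through 5 lists written from general knowledge, with earlier results of these data known. Of 23 tested genes of the amino acid response and of amino acid synthesis, where the factor ATF4 drives transcription when amino acids are short, 1 rose and 8 fell, with a median change of -0.33 beside 0.01 for all tested genes. CEBPB, a factor induced by many stimuli, rose from 52.1 ± 11.2 to 155 ± 25 FPKM, a log2 change of 1.56 (limma adjusted p = 0.000218). ASNS, which makes asparagine, fell from 18.6 ± 1.24 to 9.19 ± 1.04, a change of -0.95 (limma adjusted p = 0.000398). PSPH, the last enzyme of serine synthesis, fell from 31.2 ± 1.67 to 17.9 ± 1.51 FPKM, a change of -0.77 (limma adjusted p = 0.000892; SD, n = 4 each). PHGDH, chosen after its values were seen, opens serine synthesis and went from 22.7 ± 7.18 to 7 ± 2.62 FPKM, a change of -1.58 (limma adjusted p = 0.00184). ATF4 itself was 80.7 ± 8.58 and 61.3 ± 5.96 FPKM (SD, n = 4 each) and was not called, at -0.39 (limma adjusted p = 0.0582).

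Among 12 tested enzymes of glutamine, glutamate and glutathione 3 rose and 1 fell, with a median of 0.06. GLUL, which makes glutamine from glutamate, rose from 8.88 ± 1.96 to 37.5 ± 7.05 FPKM, a log2 change of 1.97 (limma adjusted p = 6.4e-05). GLUD1, which takes glutamate into the citric acid cycle, rose from 56.1 ± 1.57 to 83.6 ± 7.48 FPKM, a change of 0.56 (limma adjusted p = 0.00712), a call lost with the GC trend removed (0.28, limma adjusted p = 0.286). GGT1, the surface enzyme that breaks down glutathione, fell from 43.2 ± 12.2 to 24.3 ± 4.89 FPKM (SD, n = 4 each), a change of -0.79 (limma adjusted p = 0.0198), which was lost without dexamethasone replicate 1 (-0.68) or 4 (-0.77). The number called in this list was 2 without dexamethasone replicate 1 or 4.

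Of 28 tested genes listed around amino acid sensing and the growth kinase mTORC1, 5 rose and 1 fell, with a median of 0.12. Besides sensors, the list holds MTOR itself and regulators such as TSC1, TSC2 and DDIT4. DDIT4, an inhibitor of mTORC1 through TSC2, rose from 52.8 ± 10.7 to 228 ± 19.4 FPKM, a log2 change of 2.11 (limma adjusted p = 1.75e-05). SAR1B, a leucine sensor, rose from 6.82 ± 0.7 to 14.7 ± 1.66, a change of 1.00 (limma adjusted p = 0.000398). CASTOR1, an arginine sensor, fell from 2.77 ± 0.417 to 1.27 ± 0.286 FPKM (SD, n = 4 each), a change of -0.73 (limma adjusted p = 0.00271). Of 12 tested genes listed as carriers of amino acids or peptides outside the 7 families, 9 were not called in limma. Among these 9, SLC15A4, SFXN1 and SLC33A1, the last known as an acetyl-CoA carrier, had an unadjusted limma p under 0.05. In this list 0 rose and 3 fell. The 3 were carriers of the inner mitochondrial membrane: SLC25A22 for glutamate, from 14.3 ± 3.05 to 6.93 ± 1.17 FPKM (limma adjusted p = 0.00271), SLC25A29 for basic amino acids, from 11.7 ± 4.09 to 4.12 ± 0.992 (limma adjusted p = 0.00301), and SLC25A15 for ornithine, from 11.5 ± 0.217 to 7.72 ± 0.213 (limma adjusted p = 0.00472; SD, n = 4 each). The number called was 5 without untreated replicate 5 or dexamethasone replicate 3.

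Of 11 tested partners and regulators of the carriers 4 rose and 2 fell, with a median of 0.14. KLF9, a glucocorticoid-induced factor, had means of 0.437 ± 0.145 and 6.83 ± 1.35 FPKM, a log2 change of 2.43. It met the filter through the treated wells, its untreated values being 0.241 to 0.588 FPKM, so the filter favoured a difference and no p is given. ARL6IP5, a protein that binds and restrains SLC1A1, rose from 25.4 ± 2.59 to 52.4 ± 2.27, a change of 1.02 (limma adjusted p = 0.000247). CD44, which binds and stabilises SLC7A11, fell from 91.2 ± 19.4 to 35.3 ± 2.55 FPKM (SD, n = 4 each), a change of -1.32 (limma adjusted p = 0.000338). Both of the next were chosen after their values were seen. SGK1, a glucocorticoid-induced kinase that raises the surface level of several carriers, went from 5.97 ± 1.28 to 23.2 ± 6.78 FPKM (limma adjusted p = 0.000523). NEDD4, a ubiquitin ligase, went from 9.33 ± 4.05 to 28.9 ± 7.2 FPKM (limma adjusted p = 0.00587; SD, n = 4 each).

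**Figure D5:**
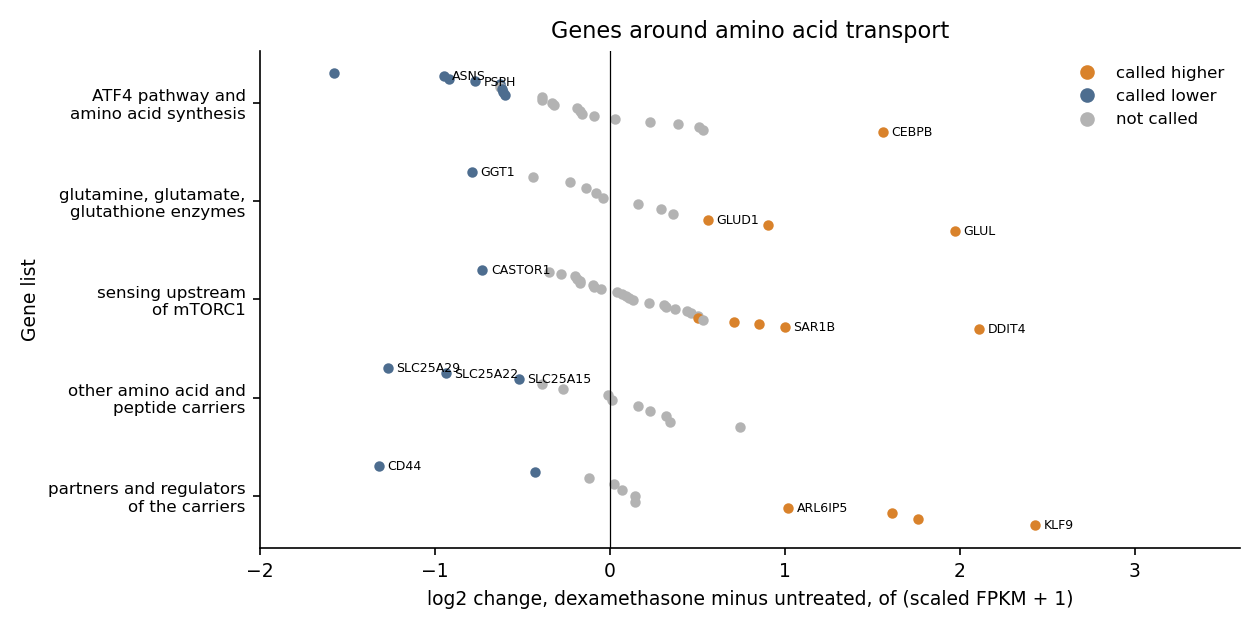
Log2 change, dexamethasone minus untreated, of each tested gene in 5 lists around amino acid transport, coloured by its call and labelled for the genes of smallest p. Most called genes of the ATF4 list lie left of 0, except CEBPB at 1.56, and all 3 called genes of the other carriers lie left of 0.

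The plot of the 5 lists sets these counts side by side: in the ATF4 list 9 of 23 tested genes were called, in the glutamine list 4 of 12, in the mTORC1 list 6 of 28, among the other carriers 3 of 12 and among the partners 6 of 11, beside 26.8% of all tested genes. The partner count includes KLF9, which met the filter through the treated wells. These counts are descriptions and not tests of the lists.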

How the data were processed

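RNA from 4 untreated and 4 dexamethasone-treated wells was sequenced, 1 library per well. Per the series design text, the authors depleted ribosomal RNA, checked reads with FastQC 0.11.9, trimmed with Cutadapt 3.4, aligned to GRCh38 with STAR 2.7.9a and quantified genes with featureCounts (Subread 2.0.3). The deposited table calls its values counts, but they were taken to be FPKM. They are not whole numbers and sum to 338989 to 373855 per library, and multiplied by transcript length they give 1.01 to 1.11 times the total that FPKM imply. How FPKM were made, which annotation release served and whether strand was used are not given in the sources used here. Whole counts could not be recovered, since only 31% to 40.8% of low values were whole to within 0.1 fragments, 20% being chance, so the planned count test was not run, and depth is an estimate.

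FPKM were divided by trimmed-mean-of-M-values factors (trimming 0.3 of M and 0.05 of A values), and log2(value + 1) was tested two-sided with limma 3.58.1 in R 4.3.3 (moderation with trend and robust), group being the sole term. Genes with at least 0.5 FPKM before scaling in at least 4 libraries entered, or 3 where a library was left out. All printed levels are scaled values. The procedure was tested on simulated data. GC content, strand and overlaps came from GENCODE v44, which held 99.5% of the genes. Named with values in every library were all called members, the highest uncalled tested member of each family and a set of standing interest, and from each list the 3 genes of smallest p. The members and lists were chosen with earlier results of these data known. Alternatives covered the pseudocount, filter, scaling, GC trend, variance moderation, replicate number and left-out libraries, and 2 that combine the GC trend with another were chosen after seeing the data. Some items are not reported here. Proteomics of parallel wells was not analysed here.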

Additional observations from a re-analysis of the deposited data

Results flagged for a closer look

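In groups of 4 wells a value was singled out when its gap to the nearest of the others was above the 95% critical value of Dixon's test, which chance gives in about 1 of 20 groups. Of 92 groups looked at, 8 had such a well, 7 of them untreated replicate 5. SLC7A5 was 685 FPKM there against 439.8 to 466 in the other untreated wells, SLC3A2 349 against 228 to 236, SLC6A9 9.06 against 5.89 to 6.43 and SLC38A7 11.0 against 5.84 to 6.32. Outside the 7 families, CEBPB was 69.0 against 45.8 to 47.1, GGT1 61.5 against 36.7 to 37.7 and SLC25A22 18.8 against 12.1 to 13.2. As deposited, before scaling, untreated replicate 5 was also the highest for all 7, for example SLC7A5 at 562 against 471 to 506, and the gap then passed that limit for SLC3A2 alone of the 7, at 0.883 of the range. In dexamethasone replicate 5, KLF9 was 4.81 FPKM against 7.32 to 7.68 in the other treated wells. The part of library quality in these values was not tested.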

How the results depend on the processing

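Of the 16 called transporters 13 kept direction and call in all 19 other settings, 17 planned and 2 added after seeing the data. The exceptions were SLC38A1 and SLC3A2, given above, and SLC3A1, which a filter at 1 FPKM left untested, so that 1 SLC3 member was called there. Members higher numbered 7 to 9 and lower 7 to 8 over the fits that left out 1 library. The replicate numbers were not taken to pair the wells, since the labels give no shared source: same-numbered wells correlated at 0.0671 to 0.713 in their deviations, over 0.1 in 3 of 4 pairs, and 2 of 4 untreated wells matched their own number best. MYC, of the partner list, was 23.6 FPKM in untreated and 22.6 in dexamethasone replicate 1, and 2.66 to 4.82 in the other libraries. A shared source by number was not tested. With a replicate block 10 members were higher and 10 lower, including all 16 and, besides, SLC6A6 (-0.69, limma adjusted p = 0.025), SLC43A1 (-0.31, limma adjusted p = 0.0302), SLC38A7 (0.40) and SLC38A9 (0.53). That block gave 2909 genes higher and 2830 lower of all tested, 5 SLC38 and 2 SLC43 members called, and 16, 7, 12 and 8 genes called in the ATF4, glutamine, mTORC1 and other-carrier lists. Without both libraries numbered 5 the values were 2768 and 2765 genes, 5 SLC38 members, and 14, 7 and 6 genes in the ATF4, glutamine and other-carrier lists. With the GC trend removed 1 SLC36 member (SLC36A4, -0.64), 7 glutamine, 10 mTORC1 and 6 other-carrier genes were called. The GC trend with the replicate block gave 2682 and 2667 genes, 1 SLC36 member, and 8, 10 and 7 genes in those lists. The GC trend without both libraries numbered 5 gave 2610 and 2657 genes, and 9, 11 and 6. Leaving out 1 library gave 1048 to 1764 genes higher, 1237 to 2112 lower, 1 to 2 SLC3 and 2 to 4 SLC38 members, and 7 to 10, 2 to 6, 5 to 7, 3 to 5 and 5 to 7 genes in the ATF4, glutamine, mTORC1, other-carrier and partner lists. Signs turned only in uncalled members. SLC6A8 went to 0.01 with the GC trend removed, with or without the block. SLC7A2 went to -0.09 in both of these and to -0.07 without the libraries numbered 5 as well. SLC7A11 ran from -0.49 (without untreated replicate 5) to 0.10 over the left-out libraries, and was called lower with the GC trend and block (-0.50) or without the libraries numbered 5 (-0.65). SLC7A6 ran from -0.16 to 0.01 (without dexamethasone replicate 3). The cause was not tested.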

Other observations

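The balance between the glutamine exchanger SLC1A5 and the sodium-coupled importers of the SLC38 family differed between groups. SLC1A5 divided by SLC38A2 was 1.49, 1.07, 1.60 and 4.11 in untreated and 0.414, 0.390, 0.349 and 0.669 in dexamethasone replicates 1, 3, 4 and 5, so that SLC1A5 was the more abundant in every untreated well and SLC38A2 in every treated one. SLC38A1 and SLC38A2 together went from 89.1 ± 30.4 to 185 ± 30.4 FPKM, and SLC38A2 divided by SLC38A1 was 2.63 to 3.59 before and 3.39 to 3.93 after treatment (SD, n = 4 each). Replicate 5 had the highest ratio of SLC1A5 to SLC38A2 in both groups.

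Summed over all 57 genes, the transporters came to 1194 ± 174 FPKM in untreated and 931 ± 55.3 in treated wells (SD, n = 4 each), the ranges being 1089 to 1454 and 884 to 998. In rank among the 57, SLC7A7 went from 17 to 5 and SLC7A8 from 31 to 17, whereas SLC1A4 went from 11 to 18.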
